A study of Mus musculus with 6 samples.

Results

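The genes considered here encode hepatocyte growth factor (Hgf), its receptor (Met), the plasminogen activators (Plau and Plat), and the receptor that holds the Plau product at the cell surface (Plaur). Spint1, Spint2 and Serpine2 encode inhibitors of proteases that activate the growth factor or plasminogen. Together these are 8 of the 26231 genes for which a value was deposited, and they were taken by symbol. The list was chosen by the RPKM differences between the lines in earlier results of these libraries, so those differences are given as a description, with no p-value. Where the count of these genes past a threshold between the lines is given, it reuses the values that chose them and is no test of them. RNA was sequenced from mouse embryonic fibroblasts of strain FVB, taken from embryos at approximately 14 days and kept without serum for 24 h before extraction. All the cells carried Nf2 alleles flanked by loxP sites and were immortalized with SV40 large T antigen. The control line, MEF Nf2fl/fl, received a CMV-GFP lentivirus, and its 3 libraries are labelled WT (control). The other line, given as MEF Nf2-/-, received a lentivirus for Cre (CMV promoter) and GFP, and its 3 libraries are called here KO-labelled. The design has 1 line of each kind, so an effect of the genotype cannot be told apart from any other difference between the lines, and the labels do not say whether the libraries came from separate cultures. The p-values below therefore measure only the spread between these libraries, which may be technical.

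Hepatocyte growth factor is secreted, mostly by mesenchymal cells such as fibroblasts, as an inactive single chain. Serine proteases cut it into its active form, which binds the tyrosine kinase MET and drives scattering, motility and growth. Urokinase (Plau) and tissue plasminogen activator (Plat) turn plasminogen into plasmin, which degrades fibrin and matrix, and urokinase can also cut the growth factor. Urokinase bound to its receptor (Plaur) confines this proteolysis to the cell surface. The Kunitz inhibitors Spint1 and Spint2 act on the proteases that activate the growth factor, and protease nexin (Serpine2) is a serpin that blocks plasminogen activators and thrombin.

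The promoter windows of 3 of the genes are shown, because Hgf and Met lay on opposite sides of the line comparison and Plaur differed most between replicate numbers. Each runs 5′ to 3′ on the gene's strand, from 250 bases before to 50 bases after the start, and is taken from RefSeq on GRCm38.p6, the same genome as the mm10 build in the submitters' processing notes. Capitals mark the letters of AP-1 (TGANTCA), TEAD (GGAATG) and SP1 (GGGCGG) motifs, searched on both strands, and the 3 SP1 matches of the Plaur window form an unbroken run. The window of Hgf lies at chr5:16553245-16553544, that of Met at chr6:17463707-17464006 and that of Plaur at chr7:24462233-24462532, each on the plus strand.
Hgf: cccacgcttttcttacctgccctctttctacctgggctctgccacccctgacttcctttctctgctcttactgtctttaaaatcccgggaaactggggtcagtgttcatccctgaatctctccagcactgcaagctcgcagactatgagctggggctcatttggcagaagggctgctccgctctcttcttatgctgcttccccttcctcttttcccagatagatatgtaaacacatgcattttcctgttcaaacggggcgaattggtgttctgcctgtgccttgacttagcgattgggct
Met: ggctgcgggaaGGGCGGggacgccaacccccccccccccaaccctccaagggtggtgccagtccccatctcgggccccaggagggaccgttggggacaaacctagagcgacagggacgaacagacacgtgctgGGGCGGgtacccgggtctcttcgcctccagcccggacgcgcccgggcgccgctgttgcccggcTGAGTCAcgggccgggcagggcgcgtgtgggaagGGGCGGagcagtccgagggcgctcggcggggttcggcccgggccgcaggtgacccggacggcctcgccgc
Plaur: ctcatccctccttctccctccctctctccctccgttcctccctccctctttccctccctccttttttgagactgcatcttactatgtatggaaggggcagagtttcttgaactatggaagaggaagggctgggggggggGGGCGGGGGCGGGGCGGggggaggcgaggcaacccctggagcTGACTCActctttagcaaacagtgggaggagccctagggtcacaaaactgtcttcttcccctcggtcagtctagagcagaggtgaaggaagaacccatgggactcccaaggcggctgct
A window was found for 6 of the 8 genes. AP-1 letters stood in the windows of Met, Plaur and Spint1, 1 match each, and are present in 7.8% of all 32851 promoter windows. SP1 letters were matched 3 times in each of the Met, Plaur, Spint1 and Spint2 windows and 6 times in that of Serpine2, against 35.7% of all windows with at least 1 match. Neither window of Hgf held any of the 3 motifs, and TEAD letters, found in 14.7% of all windows, were absent from the windows of all 6 genes. The Hgf window had 51.3% G and C, that of Met 75.7% and that of Plaur 59.3%. These matches describe the letters alone.

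Values are read as RPKM, a count of reads per exon length and per library size, so that genes are compared per length. The depth inferred from the values was 13425517 to 19277125 reads in replicates 1 and 2, and 61095498 and 72992826 reads in replicate 3 of the lines, which the labels mark 2018. Nf2 had 13.7 ± 0.583 RPKM in the control libraries and 14.1 ± 1.27 RPKM in the KO-labelled libraries (SD, n = 3 each), so its value does not separate the lines and every direction follows the labels. Of 10 fibroblast markers, 7 had at least 1 RPKM in every library. All 10 epithelial markers were under 1 RPKM in all 6 libraries, as were 5 of 6 endothelial, 5 of 6 macrophage and the 4 of 6 listed skeletal muscle markers that have a value. In these libraries fewer cells of a kind and less RNA per cell cannot be told apart.

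**Figure D1:**
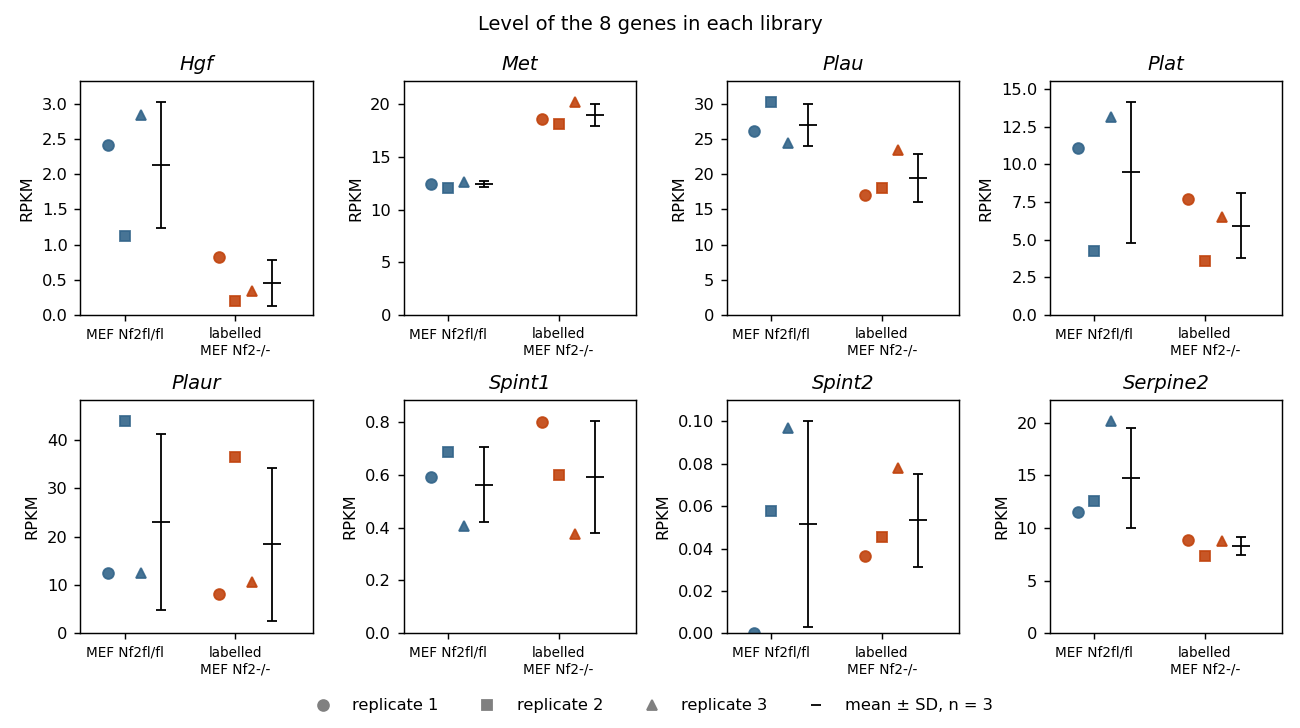
Level of each of the 8 genes in RPKM (vertical axis, linear, from 0) in the 3 control libraries (blue) and the 3 KO-labelled (red), with marker shape for the replicate number and a bar for the mean ± SD (n = 3). Met lies higher, and Hgf, Plau and Serpine2 lie lower, in every KO-labelled library, while Plaur and Plat separate by replicate 2.

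In the control libraries the mean levels ran from Plau at 27.0 ± 2.97 RPKM through Plaur at 23.0 ± 18.2, Serpine2 at 14.7 ± 4.73, Met at 12.4 ± 0.294 and Plat at 9.46 ± 4.66 down to Hgf at 2.13 ± 0.897, Spint1 at 0.561 ± 0.142 and Spint2 at 0.0515 ± 0.0487 RPKM (SD, n = 3 each). Neighbours from Plau to Plat were not apart by more than their spread. Hgf, Spint1 and Spint2 held the 3 lowest places in each of the 6 libraries, with Spint2 last. In the KO-labelled libraries the order began with Plau at 19.5 ± 3.44, Met at 19.0 ± 1.08 and Plaur at 18.4 ± 15.8 RPKM, which were within their spread of each other. Below them came Serpine2 at 8.32 ± 0.860, Plat at 5.93 ± 2.14, Spint1 at 0.592 ± 0.212, Hgf at 0.451 ± 0.330 and Spint2 at 0.0533 ± 0.0219 RPKM (SD, n = 3 each), with Plaur and Serpine2, Serpine2 and Plat, and Spint1 and Hgf within their spread. Hgf ranked above Spint1 in all control libraries and in KO-labelled replicate 1, and below it in the other two.

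Hgf, the ligand, lies on chromosome 5 from 16553495 to 16620152 (GRCm38, plus strand, GENCODE vM21). Its level was 2.42, 1.12 and 2.84 RPKM in control replicates 1, 2 and 3, and 0.823, 0.195 and 0.334 RPKM in the KO-labelled replicates 1, 2 and 3. All 3 values of the second line lay under all 3 of the first, and replicate 2 was the lowest library of either line. The mean was 4.72-fold lower, and within replicate numbers 1, 2 and 3 the level was 2.94-fold, 5.74-fold and 8.49-fold lower. On the log2(RPKM + 1) scale, which understates changes of low genes, the difference was -1.09 (standard error 0.27), and it was -2.08 with a pseudocount of 0.1 and -2.56 on the log2 scale of recovered reads. The values rest on 27.0 to 1247 reads in a library, the fewest in KO-labelled replicate 2. A pair of other annotated genes on the same strand overlap Hgf, Gm43489 and Gm42975, so reads in the shared stretches could be counted for either.

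Met, the receptor, lies on chromosome 6 from 17463800 to 17573980. Its level was 12.5, 12.1 and 12.7 RPKM in control replicates 1, 2 and 3, and 18.6, 18.1 and 20.2 RPKM in the KO-labelled libraries. The lines did not overlap, and the spread within each was the smallest relative to the mean among the 8 genes. The mean was 1.53-fold higher, and the ratios within replicate numbers were 1.49, 1.50 and 1.60. The difference on the log2(RPKM + 1) scale was 0.57 (standard error 0.084), and the values rest on at least 1286 reads in each library. Ligand and receptor thus lay on opposite sides in every replicate number. The ratio of Met to Hgf, both in RPKM, was 5.15, 10.8 and 4.46 in the control libraries and 22.6, 93.0 and 60.4 in the KO-labelled libraries, with no overlap.

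**Figure D2:**
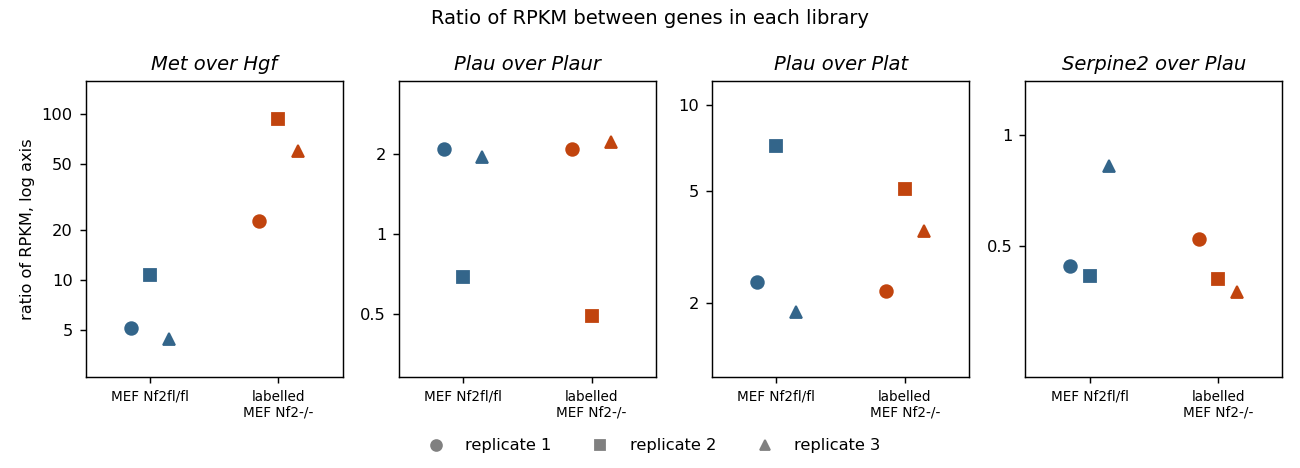
Ratio of RPKM between a pair of genes in each library (vertical log axis), with the control libraries in blue, the KO-labelled libraries in red and marker shape for the replicate number. Met over Hgf separates the lines, from 4.46 to 10.8 against 22.6 to 93.0, whereas Plau over Plaur sets replicate 2 apart in both lines, at 0.688 and 0.494, and Serpine2 over Plau overlaps between the lines, from 0.414 to 0.826 against 0.374 to 0.523.

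Plau, which encodes urokinase, lies on chromosome 14 from 20836660 to 20843385. It had 26.2, 30.2 and 24.4 RPKM in control replicates 1, 2 and 3, and 17.0, 18.0 and 23.4 RPKM in the KO-labelled libraries. The lines did not overlap, but the lowest control library and the highest KO-labelled library, both replicate 3, had 24.4 and 23.4 RPKM. The mean was 1.38-fold lower, a log2(RPKM + 1) difference of -0.46 (standard error 0.15), which was -0.66 without replicate 3 in both lines.

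Plat, which encodes tissue plasminogen activator, lies on chromosome 8 from 22757727 to 22782844. It had 11.1, 4.22 and 13.1 RPKM in the control libraries and 7.72, 3.56 and 6.50 RPKM in the KO-labelled libraries. The lines overlapped, because control replicate 2 was under replicates 1 and 3 of the other line. Within replicate numbers Plat was 1.43-fold, 1.19-fold and 2.02-fold lower, and the log2(RPKM + 1) difference was -0.52 (standard error 0.42). That difference was -0.97 without control replicate 2, -0.25 without control replicate 3 and -0.25 without KO-labelled replicate 2. Plau exceeded Plat in every library, with a ratio of 1.86 to 7.17 in the control libraries and 2.20 to 5.08 in the KO-labelled libraries.

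Plaur, the urokinase receptor, lies on chromosome 7 from 24462484 to 24475968. Its level was 12.6, 44.0 and 12.5 RPKM in the control libraries and 8.13, 36.6 and 10.6 RPKM in the KO-labelled libraries. The groups overlapped, and replicate 2 stood far above the other replicates in both lines. Within replicate numbers 1, 2 and 3 it was 1.55-fold, 1.20-fold and 1.18-fold lower in the KO-labelled libraries. The log2(RPKM + 1) difference was -0.35 (standard error 0.67) and turned to 0.23 without control replicate 2 and to 0.046 without KO-labelled replicate 1.

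Among the inhibitors, Serpine2 was the most abundant of the 3. It lies on chromosome 1 from 79794197 to 79861180, on the minus strand. It had 11.5, 12.5 and 20.2 RPKM in the control libraries and 8.89, 7.33 and 8.75 RPKM in the KO-labelled libraries, with no overlap. The mean was 1.77-fold lower and the ratio within replicate numbers 1, 2 and 3 was 1.30-fold, 1.71-fold and 2.31-fold lower. The log2(RPKM + 1) difference was -0.72 (standard error 0.21), and without control replicate 3, the highest library, it was -0.49.

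Spint1 and Spint2, which encode inhibitors best known from epithelia, were under 1 RPKM in all 6 libraries. Spint1, on chromosome 2 from 119237362 to 119249527, had 0.591, 0.686 and 0.407 RPKM in the control libraries and 0.799, 0.600 and 0.376 RPKM in the KO-labelled libraries. These values rest on 21.9 to 75.9 reads, and the lines overlapped. Spint2, on chromosome 7 from 29256323 to 29281912, was listed at 0 in control replicate 1, had 0.0579 and 0.0968 RPKM in replicates 2 and 3, and had 0.0364, 0.0455 and 0.0781 RPKM in the KO-labelled libraries, on at most 26.9 reads. In both genes the lines differed by less than the spread between their libraries, and for Spint2 no difference was detectable at this depth. The summed level of the 10 epithelial markers was 0.328 to 0.984 RPKM in the control libraries and 0.393 to 1.45 RPKM in the KO-labelled libraries.

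Both Kunitz inhibitors fell under the filter on low values, at least 1 RPKM in at least 3 libraries, so 6 of the 8 genes were in the fit of 11067 genes. In that fit (limma on log2(RPKM + 1), two-sided, Benjamini-Hochberg adjustment over all genes tested, threshold 0.05) 1 of the 6, Met, was past the threshold, against 1.06% of all genes tested, or 0.479% higher and 0.578% lower. Met was not past it in any of the 6 fits that left out a single library, in which its log2 difference stayed between 0.53 and 0.61, nor with no filter on low values. Without control replicate 2 the gene past the threshold was Hgf, against 1.28% of all genes. With the replicate number as a block Hgf and Met were past the threshold, against 7.53% of all genes, or 2.99% higher and 4.54% lower. Without replicate 2 in both lines Hgf, Met and Plat were, against 4.37% of all genes. The lines did not overlap in 4 of the 6, 1 higher and 3 lower, against 15.1% of all genes tested, or 7.6% higher and 7.52% lower. Of the 6, 5 had a lower mean in the KO-labelled libraries, with a median log2 difference of -0.49, where the median over all genes tested was -0.0078. Since the list was made in view of this contrast, these counts describe the 8 genes and nothing is read from them. Among the 9 fibroblast markers tested, 5 were past the threshold with the replicate block, all lower, against 7.53% of all genes. Col3a1 and Thy1 passed only with the block (adjusted p = 0.0274 and 0.00716 from limma). Without the block 3 of the 9 were past it, all lower, against 1.06% of all genes. They were Pdgfra, a receptor for platelet-derived growth factor, 9.62-fold lower (9.75 ± 3.93 and 1.01 ± 0.386 RPKM), Dcn, a matrix proteoglycan, 30.1-fold lower (2.73 ± 1.21 and 0.0906 ± 0.0563 RPKM), and Fn1, fibronectin, 1.55-fold lower (475 ± 17.9 and 305 ± 9.43 RPKM, SD, n = 3 each). The summed level of the 10 fibroblast markers was 1855 to 2554 RPKM in the control libraries and 1444 to 1876 RPKM in the KO-labelled libraries. The part of these shifts in the values above was not tested.

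The difference between replicate numbers was not used by the rule that chose the genes. The labels give the same numbers to both lines, and a limma F test of the replicate number, with the line as a covariate, asked which genes differed between numbers 1, 2 and 3 in both lines alike. Plaur (adjusted p = 0.00438 from limma) and Plat (adjusted p = 0.0209 from limma) passed the threshold, 2 of the 6 genes tested, against 21.2% of all genes. Their means over the lines were 10.4, 40.3 and 11.5 RPKM for Plaur and 9.39, 3.89 and 9.81 RPKM for Plat in replicates 1, 2 and 3. Plaur was thus 3.68-fold higher and Plat 2.47-fold lower in replicate 2 than in the mean of the others. Hgf did not pass (adjusted p = 0.0966 from limma), with 1.62, 0.657 and 1.59 RPKM, nor did Serpine2 (0.208), Met (0.524) and Plau (0.659). A fit without 1 library leaves 1 replicate number with a single library. It assumes that this number varies like the others, with 1 residual degree of freedom a gene. Plaur stayed past the threshold in these fits, and Plat and Hgf were past it in only some. The number of all genes past it also moved between these fits, and was lowest without a replicate 2 library. No call is taken from them. With no filter on low values 0 of all 26231 genes passed, and Plaur had an adjusted p of 0.142 and Plat of 0.170 from limma.

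Plaur varied more between replicates than between lines. Its libraries spanned 1.74 on the log2(RPKM + 1) scale within the control libraries and 2.04 within the KO-labelled libraries, against a line difference of 0.35 in size. For Plat the spans were 1.44 and 0.94, against 0.52. Met was the reverse, with spans of 0.062 and 0.15 against 0.57. The ratio of Plau to its receptor gene Plaur followed replicate 2 as well, at 0.688 in the control line and 0.494 in the other, where the other libraries lay between 1.96 and 2.22. Of the 9 tested fibroblast markers 5 also passed the test across replicate numbers, against 21.2% of all genes tested. Col1a1, Col1a2, Col3a1 and Pdgfrb had lower values and Thy1 had a higher value in replicate 2. The 1 endothelial marker tested, Kdr, passed too (adjusted p = 0.00610 from limma), with 1.34, 4.07 and 1.68 RPKM in replicates 1, 2 and 3, 2.70-fold higher in replicate 2. The part of these markers in the replicate difference of Plaur and Plat was not tested.

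**Figure D3:**
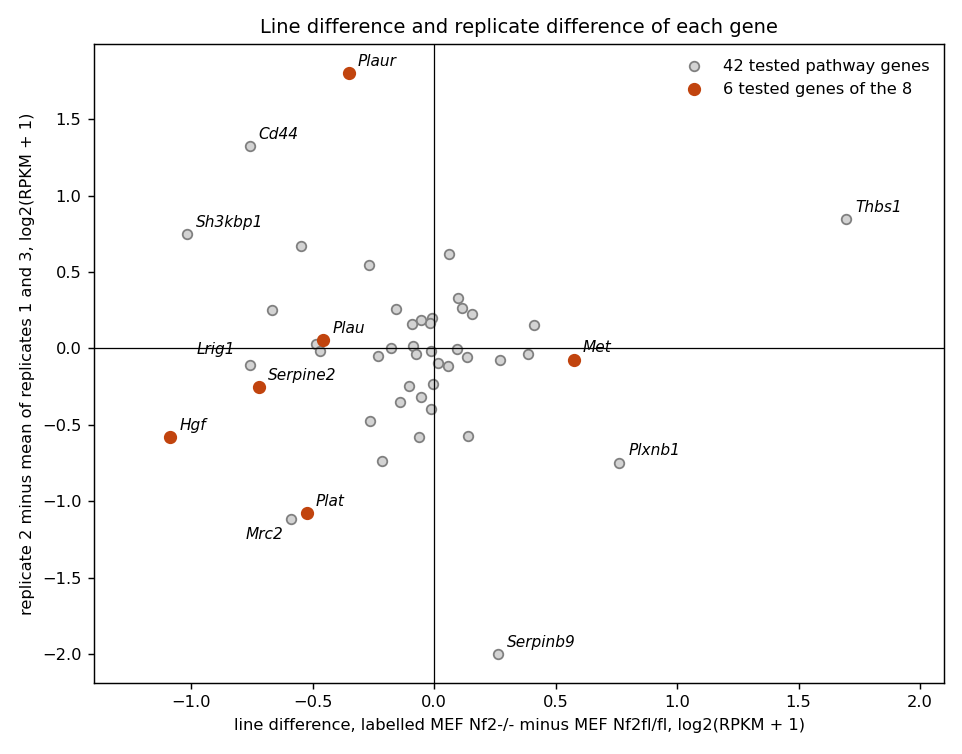
For the 6 tested genes of the 8 (red) and 42 tested pathway genes (grey), the line difference (horizontal axis) is set against the difference of replicate 2 from the mean of replicates 1 and 3 (vertical axis), both in log2(RPKM + 1). Plaur lies high on the vertical axis at 1.80 with a line difference of -0.35, Plat lies at -1.08, and Met lies to the right at a replicate difference of -0.073.

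The other genes of the pathway were taken from 4 lists with 67 genes, of which 63 have a value and 42 were tested. In the limma fit 0 of the 42 passed the threshold between the lines, while 10 had an unadjusted p under 0.05, against 9.91% of all genes, and 1 passed by limma's voom on recovered reads, against 1.36%. With the replicate block 9 passed, 3 higher and 6 lower, against 7.53% of all genes. Without replicate 2 in both lines 5 passed, Cd44, Lrig1, Plxnb1, Sh3kbp1 and Thbs1, against 4.37% of all genes. The median log2 difference of the 42 was -0.053. The lines did not overlap in 11 of the 42, against 15.1% of all genes tested.

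None of the 10 listed proteases and ligands around the growth factor could be tested, because the 9 with a value were all under the filter. St14, which encodes the membrane protease matriptase, had 0.321, 0.331 and 0.860 RPKM in the control libraries and 1.18, 1.40 and 0.899 RPKM in the KO-labelled libraries. The lines did not overlap, although replicate 3 of each lay close together. Hgfac, the circulating activator of the growth factor, had 0.0324 to 0.0682 RPKM in the 6 libraries, on at most 17.0 reads. Plg, which encodes plasminogen and is made mainly by liver, was listed at 0 in 4 of the 6 libraries and rested on 1.0 read in the others.

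Of 26 MET partners, adaptors and phosphatases, 25 were tested, and 5 passed with the replicate block, 2 higher and 3 lower, against 7.53% of all genes. Gab1, the docking protein that carries much of the MET signal, had 6.53, 6.04 and 5.96 RPKM in the control libraries and 8.84, 8.22 and 8.04 RPKM in the KO-labelled libraries, a log2 difference of 0.38 (limma adjusted p = 0.135, or 0.0223 blocked by replicate number). The lines did not overlap, and within each replicate number the ratio was 1.35 or 1.36. Plxnb1, a semaphorin receptor that can pair with MET, had 2.74 ± 1.04 and 5.46 ± 2.12 RPKM (SD, n = 3 each), higher in each replicate number though the lines overlapped (limma adjusted p = 0.482, or 0.0240 blocked by replicate number).

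Lower were Lrig1, Sh3kbp1 and Cd44. Lrig1, a membrane protein that restrains receptor tyrosine kinases, had 29.1 ± 3.20 and 16.8 ± 2.04 RPKM (SD, n = 3 each), with no overlap (limma adjusted p = 0.0559, or 0.0126 blocked by replicate number, 0.0446 by limma's voom). Sh3kbp1, an adaptor for uptake of receptors bound to the ubiquitin ligase Cbl, had 10.7, 22.6 and 11.3 RPKM in the control libraries and 5.29, 8.42 and 5.88 RPKM in the KO-labelled libraries (limma adjusted p = 0.256, or 0.00922 blocked by replicate number). Cd44, a hyaluronan receptor that can act as a partner of MET, had 44.8, 106 and 47.1 RPKM against 25.5, 70.9 and 24.4 RPKM, lower within each replicate number though the lines overlapped (limma adjusted p = 0.785, or 0.0105 blocked by replicate number). In both lines Cd44 was highest in replicate 2, as Plaur was, and it passed the test across replicate numbers (adjusted p = 0.00548 from limma).

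**Figure D4:**
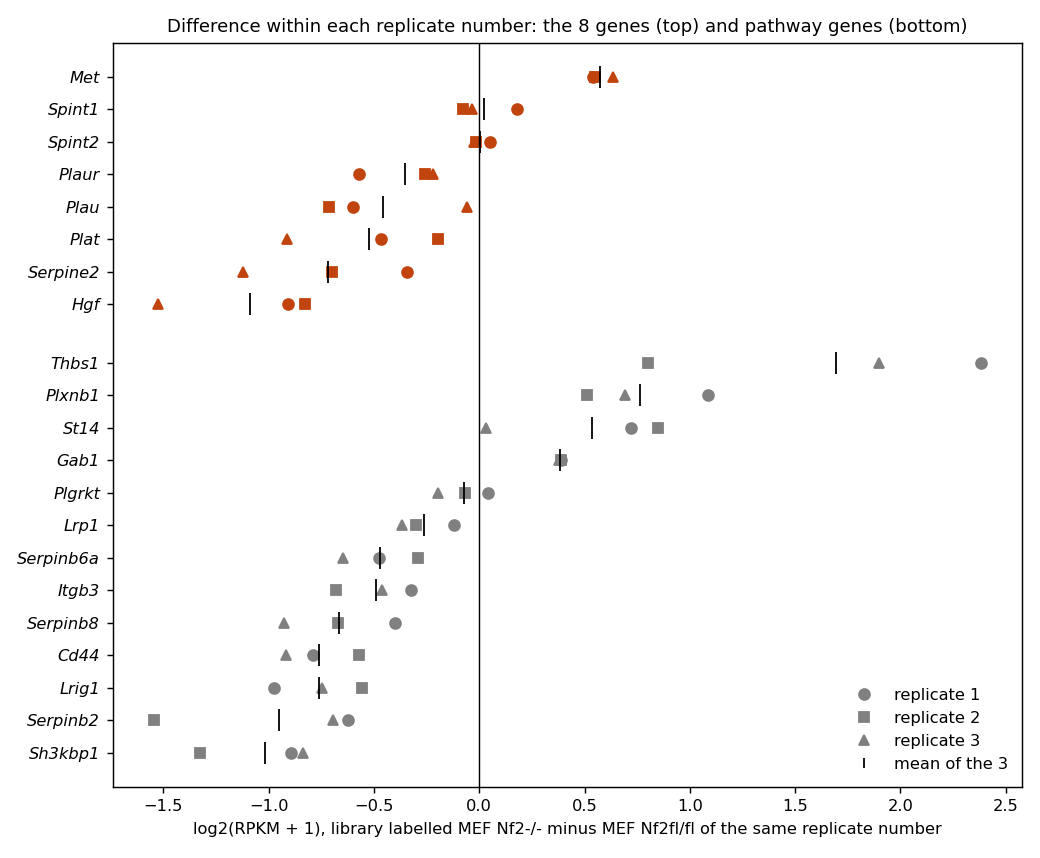
Difference in log2(RPKM + 1) between the KO-labelled library and the control library of the same replicate number (horizontal axis) for the 8 genes (red, top) and 13 pathway genes (grey, bottom), with marker shape for the replicate number and a black tick for the mean of the 3. All replicate numbers lie right of 0 for Met, Gab1, Plxnb1 and Thbs1 and left of 0 for Hgf, Serpine2, Plau, Plat, Plaur, Lrig1, Cd44 and Sh3kbp1.

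Of 16 genes for plasminogen, its receptors and clearance, 11 were tested, and 1 passed with the replicate block, where 7.53% of all genes did. This was Itgb3, an integrin subunit that binds vitronectin beside the urokinase receptor, with 2.51 ± 0.358 and 1.50 ± 0.142 RPKM (SD, n = 3 each) and no overlap (limma adjusted p = 0.168, or 0.0391 blocked by replicate number). Lrp1, which clears activator and inhibitor complexes from the cell surface, had 67.7, 50.6 and 71.3 RPKM against 62.3, 40.9 and 55.0 RPKM (adjusted p = 0.832 from limma). Plgrkt, a plasminogen receptor, had 6.25 ± 0.156 and 5.90 ± 0.476 RPKM (SD, n = 3 each, adjusted p = 0.942 from limma), and both genes overlapped between the lines.

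The last list has 15 genes around the inhibitors of plasminogen activation and plasmin, not all of them established as such. The 6 tested were Thbs1, Serpinb6a, Serpinb8, Serpinb9, Tfpi and Pebp1. Of these, 3 passed with the replicate block, where 7.53% of all genes did. Serpini1, Serpina5, Serpinf2 and A2m were under the filter. Thbs1, a matricellular protein that can bind plasmin and plasminogen, had 124, 471 and 217 RPKM in the control libraries and 649, 821 and 813 RPKM in the KO-labelled libraries, with no overlap (limma adjusted p = 0.206, or 0.0335 blocked by replicate number). Its log2 difference was 1.69. It was 2.20 without control replicate 2 (adjusted p = 0.0199 from limma), 1.24 without control replicate 1 (adjusted p = 0.402 from limma), and 1.64 to 1.80 without each of the others (adjusted p from 0.312 to 0.525 by limma). Serpinb6a had 60.8 ± 8.44 and 43.4 ± 3.36 RPKM (SD, n = 3 each, limma adjusted p = 0.208, or 0.0357 blocked by replicate number), and Serpinb8 had 1.92 ± 0.385 and 0.838 ± 0.248 RPKM (SD, n = 3 each, limma adjusted p = 0.157, or 0.0322 blocked by replicate number). Both encode intracellular serpins, and neither overlapped between the lines.

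Serpinb2, a serpin that inhibits urokinase, was under the filter, with 0.538, 2.56 and 0.624 RPKM in the control libraries, where it was highest in replicate 2, as Plaur was, and was listed at 0, 0.221 and 0.00473 RPKM in the KO-labelled libraries. Its lines did not overlap, on 0 to 113.9 reads.

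Across replicate numbers 14 of the 42 pathway genes passed the limma F test, 5 higher and 9 lower in replicate 2 by the difference from the mean of the others, against 21.2% of all genes tested. Beside Cd44 and Sh3kbp1, those higher were Anxa2, Itgb1 and Itga5, of which Anxa2 encodes a cell-surface partner of plasminogen and tissue plasminogen activator, and the integrin subunits pair as a fibronectin receptor. The largest falls in replicate 2 were those of Serpinb9, from 18.7 and 26.2 RPKM in replicates 1 and 3 to 4.74 RPKM (adjusted p = 0.00513 from limma), and of Mrc2, a collagen receptor found beside the urokinase receptor, from 59.9 and 61.4 RPKM to 28.6 RPKM (adjusted p = 0.0189 from limma). These genes were named after their values across replicate numbers were seen.

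The tested genes most like Hgf over the 6 libraries were Syne3, Camk1d and Vegfd, with root mean square differences of 0.10, 0.13 and 0.13 between mean-centred log2(RPKM + 1) profiles, where the median over 9619 candidates was 0.635. Vegfd had 16.1, 7.84 and 16.2 RPKM in the control libraries and 8.52, 3.94 and 4.65 RPKM in the KO-labelled libraries. The log2(RPKM + 1) scale understates changes of low genes such as Hgf, so a near profile is not an equal fold change in RPKM. Those most like Met were Afdn, Dlg1 and Slc4a7, with differences of 0.066, 0.074 and 0.078, where the median over 9618 candidates was 0.332. Afdn had 13.4, 12.8 and 11.8 RPKM against 19.2, 19.2 and 21.6 RPKM.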

How the data were processed

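The 8 genes, the lists and the tests were chosen with earlier results of these data known. Total RNA from 3 libraries of each line was sequenced, at GENEWIZ, which also analysed the reads. The authors deposited 1 table whose values are taken as RPKM. The build is mm10 in the submitters' processing notes, while the aligner, the counting tool and the unit are not given in the sources used here. The unit was inferred here from the values: columns sum to 250088 to 263424, and multiplied by GENCODE vM21 exon length (25983 genes matched by symbol), 82.3% to 85.4% of values of up to 20 reads lay within 0.05 of a whole read, where 10.0% would by chance. That step gives the inferred reads, and they fix the precision of low genes, for counting error only. Some values far below 1 read stand beside zeros, so stated reads are estimates.

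On the log2(RPKM + 1) scale, the transform the study used, genes that reached 1 RPKM in 3 or more of the libraries were fitted with limma 3.58.1 in R 4.3.3 (eBayes with trend and robust settings) without covariates. For each replicate number given in the labels, deviations from the mean of the line were correlated between lines over all tested genes, at 0.552, 0.819 and 0.516 for numbers 1, 2 and 3. In each line the 3 deviations of a gene cancel out, so a shared difference of number 2 alone would raise all 3 values. They therefore cannot show that the libraries numbered 1 and 3 are pairs. The replicate block reads same-numbered libraries as pairs, which was not tested, and its values are given where they change a call. The replicate number was tested by an F test with 2 degrees of freedom beside the line, with 2 residual degrees of freedom. The fits were tested on simulated data. Named pathway genes are St14, Hgfac, Plg, Plgrkt, Lrp1, Cd44 and Gab1, list genes past the threshold in the fit with or without the block, and those whose lines do not overlap with a log2 difference of at least 0.5. For Hgf and Met the 3 nearest profiles among tested genes whose mean reached 2 RPKM are named. 1 gene of the rule and lists is not reported here. Figures were drawn with matplotlib 3.10.9.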

Additional observations from a re-analysis of the deposited data

How the results depend on the processing

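Of the 8 genes, Met was past the threshold between the lines (1 of 6 tested). The count was 0 with no filter on low values, 2 with the replicate block (Hgf and Met) and 0 to 3 when a library or a replicate number was left out. The number of all genes past the threshold, 117, was 9 with no filter, where 26231 genes share the adjustment, 63 with a filter of 5 RPKM, 833 with the replicate block and 0 to 484 when libraries were left out (11, 142 and 10 without control replicates 1, 2 and 3, and 10, 92 and 18 without the same KO-labelled replicates), with 484 lacking replicate 2 in both lines and 0 without replicate 1 (578 at an unadjusted p under 0.05 by limma) or replicate 3 (556 at an unadjusted p under 0.05). Pathway genes past the threshold rose from 0 to 9 with the replicate block, to 1 by voom on recovered reads and lay between 0 and 5 when libraries were left out. The log2 difference of Hgf was -2.08 with a pseudocount of 0.1 and -2.56 by voom, and -1.34 to -0.87 when libraries were left out. That of Plau was -0.66 to -0.33 and that of Plaur -0.97 to 0.23. Across replicate numbers 2 of the 6 genes tested passed, where 2347 of all 11067 did. With no filter 0 of the 8 genes passed, and 0 of all 26231 did. No direction of the 6 tested members turned with other limma settings, normalizations, pseudocount, filters or voom, where each was fitted (Hgf was not, with the filter of 5 RPKM). The causes of the moves with a filter of 5 RPKM, the replicate block and left-out libraries were not tested. Depth limits Spint2, which had at most 26.9 reads in a library.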
